A study of Mus musculus with 8 samples.

Results

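Introns that overlap or lie near a gene on the opposite DNA strand were followed through mouse monocyte development and in monocytes with a knockout of Upf2. An intron entered where its class mark in both knockout tables named an antisense gene, and where its spliced count was at least 20 in every library, the spliced count being the larger of the counts at its left and right end. The rule kept 16284 introns, in 4182 gene IDs, of the 204362 introns listed in all 8 tables. Polyadenylated RNA had been sequenced from bone marrow, per the source names, although another label calls the cells a monocytic cell line. The groups were Ly6Chi monocytes with a knockout of Upf2 (2 libraries, called the knockout) and, all labelled untreated, MDP (1), cMoP (2), Ly6Chi monocytes (2, the controls of the knockout) and Ly6Clo monocytes (1). The disease state of each group is given as healthy. The cMoP and Ly6Chi controls carry a floxed mark in their descriptions and are listed as WT. The descriptions of MDP and Ly6Clo carry no floxed mark. Neither the Cre driver of the knockout nor the age of the mice is given in the sources used here. MDP and cMoP are, in this field, successive progenitors of monocytes, and the monocyte groups are named for high and low Ly6C, a protein of the cell surface. The labels do not tie replicates to different animals or cultures. The p-values therefore reflect the spread between these libraries alone, which may be technical.

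Intron retention leaves an intron in polyadenylated RNA. Such RNA is often held in the nucleus or carries a premature stop codon that exposes it to nonsense-mediated decay, for which Upf2 is a core factor. Many mammalian genes overlap a neighbour on the other strand, either at their starts (head to head), at their ends (tail to tail) or with one gene inside the other. An exon of the neighbour can then lie across the splice site of an intron. Reads from both genes map to that site, and only the strand of a read tells them apart. The libraries were made with a strand-specific kit, per the labels' protocols, but whether the counting used strand is not given in the sources used here. Where genes overlap, therefore, boundary reads of an intron and reads of its neighbour's exon cannot be told apart from the counts alone.

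The sites on which the results turned are shown first. Each sequence is the RNA-sense strand of the host gene on mm10, with 15 exon and 15 intron bases. Capitals mark the terminal intron bases, GT at most 5′ splice sites (donors) and AG at 3′ splice sites (acceptors). All were read, reversed to the host's strand, from GENCODE mouse release 21 transcripts of the opposite gene, whose mature RNA thus spans the whole site.
Zfp961 acceptor, chr8:71992833-71992862 (+), opposite Cyp4f18: attcaatctcctcAGgctcgcggtccctca
Tubgcp4 donor, chr2:121170696-121170725 (+), opposite Zscan29: cgcctcccgaacgaaGTaagaactcggcaa
Ddb2 donor, chr2:91212265-91212294 (-), opposite Acp2: tggcctctactatggGTgagtaaaagcaac
Ddb2 acceptor, chr2:91211998-91212027 (-), opposite Acp2: tcttgtttcttctAGgttatcatattctca
Selo donor, chr15:89099729-89099758 (+), opposite Tubgcp6: ggagacttttcagagGCaagcacacactat
Selo acceptor, chr15:89099816-89099845 (+), opposite Tubgcp6: ccacctgttctctAGgtgcggcgtgtcctg
Pi4ka donor, chr16:17406240-17406269 (-), opposite Snap29: cacctcctgtctcagGTactgctgcctgtc
Oxnad1 donor, chr14:32085552-32085581 (+), opposite Dph3: ctgcgcccaggcaggGTaaggcccggtctt

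The Selo donor reads GC in place of GT. Of the covered donors that could be read in this way, 840 of 852 (98.6%) began with GT, and 772 of 774 acceptors (99.7%) ended with AG. The sites were chosen because an opposite exon covers them, so their place inside exon sequence of the neighbour follows from the annotation. The letters do not say which strand a read came from.

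The annotation put the 16284 introns in 5 places relative to the opposite strand. An opposite-strand exon crossed at least 1 boundary, with 5 or more bases on each side, in 1262 introns of 699 genes, and is called a covered boundary below. Such an exon lay inside 1081 introns without reaching a boundary. A further 2547 introns overlapped an opposite gene but no exon of it, 11110 lay within 5 kb of one, and for 284 no opposite gene lay within 5 kb. The nearest or overlapping opposite gene stood tail to tail with the host for 58.9% of the introns, head to head for 18.4%, inside the host for 13.9% and around it for 6.96%. It was protein-coding for 69.5% and an annotated antisense RNA for 17.6%.

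As a whole these introns were shorter and nearer to gene ends than unmarked ones. Their median length was 784 bp, against 1416 bp in the 63988 introns that carry no mark, called clean in the tables. It was 641 bp for introns with the near mark alone, but 1686 bp for those with the overlap mark alone. The first intron of a transcript made up 20.3% of them and 10.7% of the clean introns, and the last intron 20.6% and 9.90%. Untranslated regions held 9.03% of them and 5.42% of the clean introns. The median of the host genes' mean TPM (a transcript abundance corrected for length) was 41.5, against 35.8 for hosts of clean introns. At the threshold of 20 spliced reads, 147 introns had a lowest count of exactly 20, among them introns of Abcb6 and Acsl3, and 172 introns just outside had 19, among them introns of Ptpn18 and Ankrd23.

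The tables of the knockout differed in form from those of the other 6 libraries. Only the knockout tables carry the antisense mark, and the same introns stand as clean (15812) or as known-exon introns, a mark for overlap with an annotated exon (472), in the other tables. The knockout tables also excluded more bases from measurement in 86.5% of introns with an opposite exon inside, in 51.5% of those with a covered boundary, in 0.0393% of those that overlap a gene but no exon, and in 1.06% of clean introns. Among the other 6 tables the excluded bases never differed. The kind of table and the knockout cannot be told apart in any comparison with the knockout. Among libraries without the knockout, cMoP replicate 2 stood apart, with 4.80 boundary reads per 100 spliced reads over these introns. The value was 6.57 in cMoP replicate 1, 7.27 to 9.01 in the MDP, Ly6Chi and Ly6Clo libraries, and 6.63 and 7.01 in the knockout. Upf2 itself was at 20.4 and 22.4 TPM in the knockout and 20.1 and 18.2 TPM in Ly6Chi controls, and its junction of exons 2 and 3, the ones the labels name for their PCR check, had 10 and 13 spliced reads in the knockout, against 41 and 45 in Ly6Chi controls. The other libraries without the knockout had 59 in MDP, 38 and 16 in cMoP and 39 in Ly6Clo, so cMoP replicate 2 came near the knockout. Some defining markers were highest in the groups they name. Flt3 reached 197 TPM in the MDP library, Mpo 12416 and 10338 TPM in cMoP, and Treml4 659 TPM in Ly6Clo, where Ly6c2 was at 62.8 TPM. Ccr2 reached 1401 and 1357 TPM in Ly6Chi controls, against 656 and 883 TPM in the knockout. Others were not highest there. Csf1r, taken as an MDP marker, was at 163 TPM in MDP, 547 and 535 TPM in Ly6Chi and 1629 TPM in Ly6Clo. Cx3cr1 was at 48.6 TPM in MDP and 605 TPM in Ly6Clo. Ly6c2 was at 4875 and 3518 TPM in cMoP and 3439 and 4057 TPM in Ly6Chi.

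In the knockout, more reads crossed the boundaries that lie under an opposite-strand exon than in Ly6Chi controls. The opposite genes had a median log2 difference between -0.25 and 0.08 across ranges of their level. The measure was U, the reads over the left and right exon-intron boundary, relative to S, the spliced count, and changes are log2 differences of U relative to S with the median of all introns fitted (-0.29) subtracted. edgeR's quasi-likelihood test, adjusted by Benjamini and Hochberg over 61552 introns, called 79 of the 14154 introns fitted higher (0.558%) and 0 lower, in 56 genes. Over all introns fitted, 0.146% were called, 0.143% higher and 0.00325% lower. The count rests on few libraries: it was 9 and 10 without knockout replicates 1 and 2, and 3 and 2 without Ly6Chi replicates 1 and 2. Without cMoP replicate 1 it was 239 higher and 132 lower, against 305 higher and 776 lower over all 61552 introns, and without cMoP replicate 2 it was 238 higher and 129 lower, against 305 higher and 774 lower over all. By the same test 1017 of these introns had an unadjusted p under 0.05. The remaining 2130 introns had fewer than 20 boundary reads in all and were not fitted.

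Calls gathered at covered boundaries. Of 1072 such introns fitted, 61 were called higher (5.69%), in 43 genes. Outside them the count was 18 of 13082 (0.138%). That share is close to the 0.143% of all introns, most of whose calls are marked introns themselves, and above the 0.0192% of clean introns. It was 0 of 791 where the opposite exon lay inside the intron only, 4 of 2130 where a gene but no exon overlapped, 13 of 9927 within 5 kb of a gene and 1 of 234 with none within 5 kb. Introns that carried the known-exon mark and both antisense marks had the largest share of the 4 classes, 34 of 395 (8.61%). Clean introns had 9 called higher and 2 lower of 46757, and 2 of those 9, in Cpsf2 and Ak3, were among the 166 clean introns with a covered boundary by this annotation. The places were defined with the calls known, so these counts describe the introns and were not tested against each other.

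**Figure D1:**
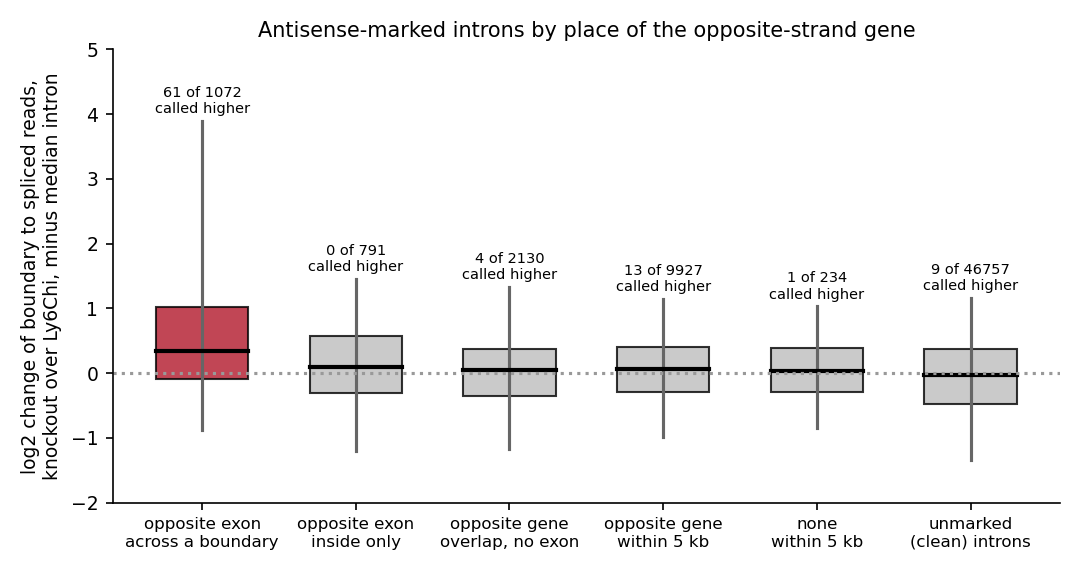
Log2 change of boundary reads relative to spliced reads in the knockout over Ly6Chi controls, minus the median intron (vertical axis), for each place of the opposite-strand gene and for clean introns. Boxes span the quartiles, lines inside them are medians, whiskers run from the 5th to the 95th percentile, and the numbers give introns called higher of those fitted. The box of introns with a covered boundary reaches higher than the others, with 61 of 1072 called.

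Zfp961, a zinc finger gene, gave the most boundary reads among the 8 introns with the largest rises. Its intron 1 (ENSMUSG00000052446, chr8:71951161-71992847, 41687 bp) ends inside an exon of Cyp4f18, a cytochrome P450 that inactivates leukotriene B4. Boundary reads numbered 1253 and 943 in the knockout, against 4 and 4 in Ly6Chi controls, and were 0 in the MDP library, 3 and 0 in cMoP and 1 in Ly6Clo. Nearly all of the knockout's reads, 1252 and 942, crossed the acceptor shown above, and 1 in each library crossed the donor. The deposited retention ratio overlapped between the groups, at 0.00890 and 0.00994 in the knockout and 0.0104 and 0.00636 in Ly6Chi controls. In the annotation it is the sole intron of a non-coding transcript of Zfp961. Spliced reads were 35 and 44 in the knockout and 44 and 60 in Ly6Chi controls, and the change was 8.73 ± 0.59 (log2, SE; edgeR adjusted p = 0.000483; n = 2 libraries each). Cyp4f18 was at 168 and 147 TPM in the knockout, 148 and 138 TPM in Ly6Chi controls and 340 TPM in Ly6Clo. It was at 9.11 TPM in MDP and 21.1 and 13.8 TPM in cMoP, so outside the knockout the boundary reads were few at low and at high levels of Cyp4f18.

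Ddb2, which encodes a sensor of ultraviolet DNA damage, and Acp2, a lysosomal acid phosphatase, meet tail to tail. The last intron of Ddb2 (intron 8, chr2:91212013-91212279, 267 bp) has both boundaries inside Acp2 exon sequence. Boundary reads numbered 102 and 81 in the knockout, against 0 and 0 in Ly6Chi controls, with 4 in the MDP library, 10 and 3 in cMoP and 2 in Ly6Clo. Spliced reads were 93 and 64 in the knockout and 57 and 54 in Ly6Chi controls, so boundary reads per spliced read were at least 43.1-fold higher in the knockout, taking 3 reads over the control group as its floor. The 2 groups did not overlap, which was a condition for naming the introns with the largest rises (edgeR adjusted p = 0.00472). Acp2 was at 9.28 and 11.1 TPM in the knockout and 16.3 and 12.7 TPM in Ly6Chi controls, 8.06 TPM in MDP, 12.6 and 10.2 TPM in cMoP and 40.9 TPM in Ly6Clo.

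Selo, which encodes a mitochondrial selenoprotein, ends opposite Tubgcp6, a subunit of the gamma-tubulin ring complex. Its last intron (intron 8, chr15:89099744-89099830, 87 bp) had 170 and 130 boundary reads in the knockout, 1 and 0 in Ly6Chi controls, 1 in the MDP library, 4 and 5 in cMoP and 6 in Ly6Clo. Reads crossed both covered sites in the knockout, 65 and 48 at the donor and 105 and 82 at the acceptor. The pooled ratio of knockout to control was 260-fold, with a 95% counting interval from 46.3 to 10299 that covers counting error only (edgeR adjusted p = 0.00186). Tubgcp6 stood at 13.5 and 14.2 TPM in the knockout and 13 and 13.3 TPM in Ly6Chi controls, so the opposite gene nearly held its level.

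Of the 8 introns with the largest rises, 3 were first introns of hosts that start head to head with their neighbour, and in these nearly all reads of the knockout fell on the donor. Tubgcp4, another gamma-tubulin complex gene, starts opposite Zscan29. Its first intron (chr2:121170711-121173557, 2847 bp) had 38 and 60 boundary reads in the knockout, all at the donor, and 0 and 0 in Ly6Chi controls, with 1 in the MDP library, 0 and 1 in cMoP and 3 in Ly6Clo. Per spliced read this was at least 49.1-fold higher in the knockout (edgeR adjusted p = 0.0067). Pi4ka encodes a phosphatidylinositol 4-kinase and starts opposite Snap29, a membrane fusion protein. Intron 1 of Pi4ka (chr16:17389458-17406254, 16797 bp) had 110 and 135 boundary reads in the knockout, 2 and 1 in Ly6Chi controls, and 0 in the MDP library, in both cMoP libraries and in Ly6Clo. The pooled ratio was 187-fold (95% counting interval 63.3 to 914; edgeR adjusted p = 0.00137). Oxnad1 starts opposite Dph3, a factor for the diphthamide residue of elongation factor 2. The first intron of Oxnad1 (chr14:32085567-32091635, 6069 bp) had 163 and 135 boundary reads in the knockout and 1 and 1 in Ly6Chi controls, and between 2 and 9 in the other 4 libraries. The pooled ratio was 168-fold (95% counting interval 46.1 to 1394; edgeR adjusted p = 0.00137). Snap29 was at 27.9 and 31.8 TPM in the knockout and 32.7 and 31.2 TPM in Ly6Chi controls, and Dph3 at 54.3 and 48.1 TPM in the knockout and 38.7 and 41.2 TPM in Ly6Chi controls. Deposited retention ratios for Tubgcp4 were 0.00260 and 0.00151 in the knockout and 0.00220 and 0.00377 in Ly6Chi controls. In the same order they were 0.00304 and 0.00248, then 0.00240 and 0.00147, for Pi4ka. For Oxnad1 they were 0.00344 and 0.00423, then 0.00241 and 0.00423.

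The 2 other introns named for the largest rises had no covered boundary. Intron 3 of Mvd, which encodes an enzyme of the mevalonate pathway (chr8:122439524-122439637, 114 bp), lies within Gm20388, a long opposite-strand annotation, without touching its exons. It had 67 and 74 boundary reads in the knockout and 0 and 0 in Ly6Chi controls, with 1 in MDP and 0 in the other 3 libraries, which is at least 38.0-fold higher per spliced read (edgeR adjusted p = 0.0121). The reads crossed both boundaries, 32 and 44 on the left and 35 and 30 on the right, and the deposited retention ratio was 0.117 and 0.141 in the knockout and 0 in Ly6Chi controls. A pair of neighbouring Mvd introns was called higher too. Macrod1 is an ADP-ribose hydrolase gene. Its intron 5 (chr19:7196531-7196788, 258 bp), which lies 1414 bp from Otub1, had 19 and 31 boundary reads in the knockout and 0 and 0 in Ly6Chi controls, at least 22.2-fold higher per spliced read (edgeR adjusted p = 0.033). Retention ratios of 0.324 and 0.407 in the knockout and 0 in Ly6Chi controls rested on 28 and 29 spliced reads in the knockout. The remaining called introns without a covered boundary lie in Sfi1, Vat1, Apex1, Smpd4, Gtpbp8, Gart, Pdcd11, Gatc, Zfp296, Ptov1, Thyn1 and Mvd, and each had more boundary reads in both knockout libraries than in either control.

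Further covered introns, picked after their values were seen, also had far more boundary reads in both knockout libraries. Exosc9, an RNA exosome subunit, ends opposite the cell-cycle gene Ccna2. Its 132 bp intron (chr3:36565297-36565428) had 1979 and 1665 boundary reads in the knockout and 23 and 10 in Ly6Chi controls, with 21 in the MDP library, 24 and 36 in cMoP and 19 in Ly6Clo. Ccna2 was at 113 and 137 TPM in the knockout, 128 and 119 TPM in Ly6Chi controls, 138 TPM in MDP, 112 and 126 TPM in cMoP and 5.87 TPM in Ly6Clo. Ccna2 was thus low in Ly6Clo alone, and spliced reads of the intron ran from 121 in Ly6Clo to 759 in cMoP replicate 2. The Tmem189 intron whose boundary lies in the exon of Cebpb, a transcription factor of monocytes (chr2:167654728-167689510), had 1217 and 963 boundary reads in the knockout, 9 and 9 in Ly6Chi controls, 1 in MDP, 4 and 0 in cMoP and 6 in Ly6Clo. Cebpb was at 277 and 298 TPM in the knockout, 219 and 325 TPM in Ly6Chi controls, 17 TPM in MDP, 56.1 and 59.7 TPM in cMoP and 565 TPM in Ly6Clo. Irak4, a kinase of Toll-like receptor signalling, had 138 and 159 boundary reads in the knockout and 19 and 13 in Ly6Chi controls at its intron opposite Twf1, an actin regulator at 23.3 and 28.6 TPM in the knockout and 28.4 and 34.1 TPM in Ly6Chi controls.

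Pairs could be called from both sides. Cops3, a COP9 signalosome subunit, and Nt5m, a mitochondrial nucleotidase, overlap at their starts, and an intron of each was called higher. The Nt5m intron under Cops3 had 105 and 104 boundary reads in the knockout and 3 and 6 in Ly6Chi controls (change 4.16 ± 0.55, edgeR adjusted p = 0.0208). The Cops3 intron under Nt5m had 59 and 56 in the knockout and 5 and 9 in Ly6Chi controls (3.46 ± 0.46, adjusted p = 0.0262). Cops3 averaged 70.5 TPM over the 8 libraries and Nt5m 15.7 TPM. Some hosts gave several called introns under one neighbour, among them Zfp335 opposite Pcif1, Fanca opposite Zfp276, Ccdc167 opposite Cmtr1 and Dcps opposite 4930581F22Rik. Such introns share a neighbour, and those with a common boundary share reads, so they do not count as separate observations.

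The 61 covered introns that were called ranged in change from 2.95 (Ilk, opposite Taf10) to 9.51 (Tubgcp4). Both boundaries were covered in 34 of them. The opposite genes had a mean level between 5.97 and 245 TPM, with a median of 26.9 TPM. Their own log2(TPM + 1) in the knockout minus Ly6Chi controls ran from -0.91 to 0.43, with a median of -0.06. The 61 introns were picked for a large rise, so a rise above the difference in the neighbour's RNA follows from that choice.

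The change grew with the level of the opposite gene. Where the opposite gene averaged under 1 TPM, 0 of 396 covered introns were called and the median change was 0.11. From 1 to 5 TPM, 0 of 181 were called, with a median of 0.19. Calls began between 5 and 20 TPM, at 15 of 214 (7.01%, median 0.63), and were 28 of 170 (16.5%, median 0.73) from 20 to 50 TPM and 18 of 99 (18.2%, median 1.19) from 50 TPM. The opposite genes themselves had a median log2 difference between -0.25 and 0.08 in these 5 ranges. For 14 covered introns the opposite gene had no TPM value.

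**Figure D2:**
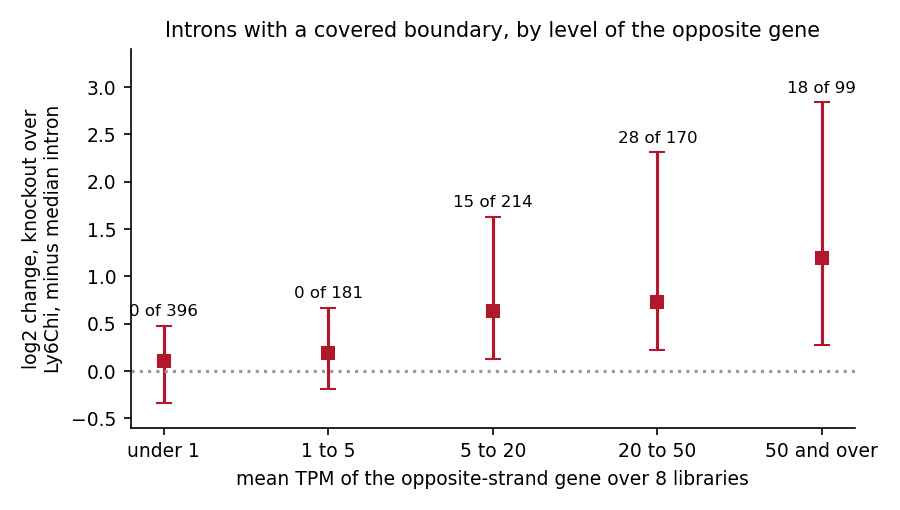
Median log2 change of boundary reads relative to spliced reads, knockout over Ly6Chi controls minus the median intron (squares), with quartiles (bars), for introns with a covered boundary, by mean TPM of the opposite-strand gene. The numbers give introns called higher of those fitted, from 0 of 396 under 1 TPM to 18 of 99 at 50 TPM and over, and the median climbs with that level from 0.11 to 1.19.

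Introns with only 1 covered boundary allow both boundaries of an intron to be compared within a library. Over 817 such introns, the covered boundaries of the knockout libraries held 26728 and 24833 reads and the other boundaries 10447 and 11175, a ratio of 2.56 and 2.22. The ratio was 1.23 and 1.30 in Ly6Chi controls, 1.27 in the MDP library, 1.33 and 1.43 in cMoP and 1.23 in Ly6Clo. The covered boundary had more reads than the other one in 49.6% and 51.0% of these introns in the knockout and in 37.7% to 42.2% elsewhere. A single intron of H3f3a gave many of the reads in every library, and without it the ratios were 2.07 and 1.82 in the knockout, 0.92 and 0.94 in Ly6Chi controls and 0.91 to 1.24 in the other 4 libraries.

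**Figure D3:**
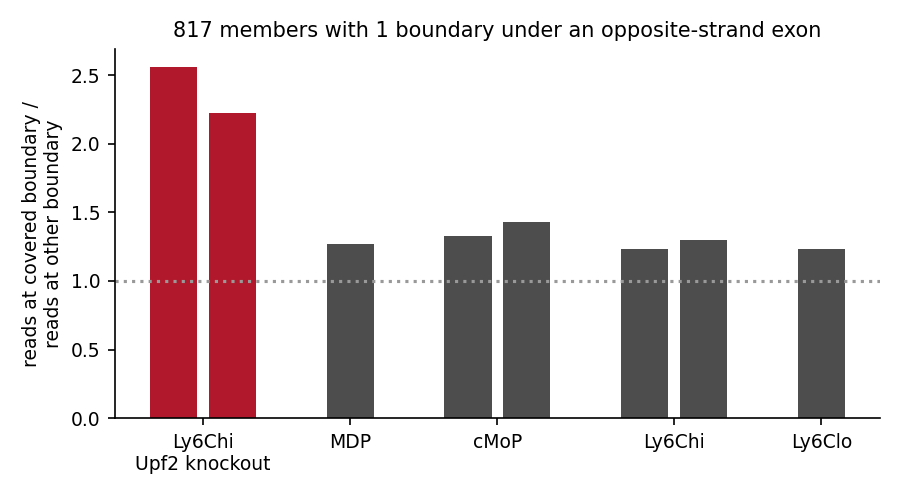
Reads at the boundary under an opposite-strand exon divided by reads at the other boundary, summed over 817 introns with 1 covered boundary, for each library (bars). The dotted line marks equal numbers. The knockout libraries (red) stand at 2.56 and 2.22, and the other 6 libraries between 1.23 and 1.43.

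The deposited retention ratio sets coverage over the body of the intron against spliced reads, and its values differed with the number of covered boundaries. Of the 34 called introns with both boundaries covered, 29 had a ratio of at least 0.1 in both knockout libraries and 2 in both control libraries, and the median ratio was 0.300 in the knockout and 0.0182 in Ly6Chi controls. Of the 27 with 1 covered boundary, 2 passed 0.1 in both knockout libraries and 0 in both controls, with medians of 0.00776 in the knockout and 0.00332 in Ly6Chi controls. Both knockout ratios lay above both control ratios in 14 of these 27 and below them in 7, against 33 and 0 of the 34. Exosc9 and Tmem189, the latter among those 7, show the contrast. The short Exosc9 intron had ratios of 0.808 and 0.815 in the knockout and 0.0682 and 0.0228 in Ly6Chi controls. The Tmem189 intron, 34783 bp long, had 0.00215 and 0.002 in the knockout and 0.00417 and 0.00322 in Ly6Chi controls. Knockout and control ratios do not always rest on the same bases, as the knockout tables excluded more in 51.5% of covered introns. That share was 35.3% of introns with the overlap mark alone and 4.51% of those with the known-exon and both antisense marks. The part of excluded bases and of intron length in the contrast was not tested.

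As a whole, antisense-marked introns were retained more often than clean ones in every library, while those with an opposite exon inside only were retained less often than clean ones in all 8. An intron was counted as retained at a retention ratio of at least 0.1. The share was 8.04% and 9.39% in the knockout, 10.1% in the MDP library, 8.11% and 2.87% in cMoP, 11.2% and 10.7% in Ly6Chi and 14.8% in Ly6Clo. Among clean introns it was 2.55% and 3.07% in the knockout, 5.15% in the MDP library, 3.59% and 1.04% in cMoP, 5.19% and 4.91% in Ly6Chi and 7.25% in Ly6Clo. The widest 95% Wilson interval for the marked introns was that of Ly6Clo, from 14.3% to 15.4%. The median log2 of U over S was higher in marked than in clean introns by 0.68 and 0.72 in the knockout, 0.60 in the MDP library, 0.57 and 0.50 in cMoP, 0.68 and 0.63 in Ly6Chi and 0.80 in Ly6Clo. Marked introns as a whole are also shorter and nearer to gene ends than clean ones. Those with an opposite exon inside only are much longer, with a median of 10407 bp against 1416 bp in clean introns. First introns make up 38.8% of them and 10.7% of clean introns. The part of length and position in these differences was not tested.

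**Figure D4:**
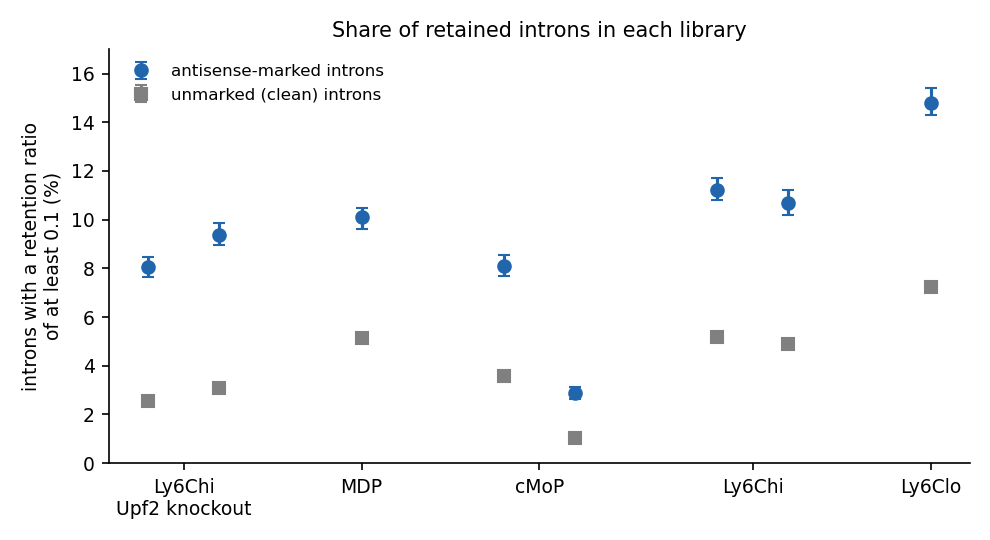
Percentage of introns with a deposited retention ratio of at least 0.1 in each library, for antisense-marked introns (blue circles) and clean introns (grey squares), with 95% Wilson intervals that cover counting error only. Marked introns lie above clean introns in all 8 libraries, and Ly6Clo is highest in both, at 14.8% of marked and 7.25% of clean introns.

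The share of retained introns averaged 8.71% ± 0.955 in the knockout and 11% ± 0.378 in Ly6Chi controls (SD, n = 2 each). The 2 groups did not overlap, and a two-sided exact permutation test gave p = 0.333, the smallest that 2 libraries against 2 allow. The difference was -2.23 percentage points in marked introns and -2.24 in clean introns, so it was no larger in the marked ones. The order turned round at covered boundaries, with 12.2% and 13.4% in the knockout and 10.2% and 9.27% in Ly6Chi controls. Where the opposite exon lay inside only, it was 0.925% and 1.48% in the knockout and 3.61% and 2.87% in Ly6Chi controls. The knockout tables excluded more bases in 86.5% of these introns and in 51.5% of those with a covered boundary. Knockout and control ratios in these places therefore do not always rest on the same bases. Within 5 kb of an opposite gene the share was 8.82% and 10.3% in the knockout and 12.8% and 12.4% in Ly6Chi controls. Boundary reads per 100 spliced reads over covered introns were 14.4 and 14.7 in the knockout, 9.90 and 10.1 in Ly6Chi controls and 6.05 to 11.6 in the other 4 libraries. The median log2 change over all marked introns fitted was -0.22 in the knockout against Ly6Chi controls, and -0.32 over clean introns, a difference of 0.11. With intron coverage in place of U this difference was -0.01. A replicate SD of 0.03 belongs to another measure, the median log2 of U over S in marked minus clean introns of each library. That was 0.68 and 0.72 in the knockout and 0.68 and 0.63 in Ly6Chi controls, so the groups met at 0.68.

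Of the 16284 introns, 396 (2.43%) were retained in all 8 libraries and 13257 (81.4%) in none, against 0.810% and 91.0% of clean introns. The share retained throughout was 23.1% of the 377 introns with the known-exon and near marks and 1.09% of the 4201 that only overlap an opposite gene. The 8 highest mean retention ratios came from introns of genes with differing roles. The last intron of Mtch1, a mitochondrial outer membrane protein gene, lies in its 3′ untranslated region, 1646 bp from Pi16, and its ratio was 0.956 and 0.966 in the knockout and between 0.948 and 0.972 in the other 6 libraries. Intron 1 of Uqcrq, a subunit of respiratory complex III, had 0.908 and 0.899 in the knockout and 0.899 to 0.944 elsewhere, 236 bp from Gdf9. A ratio near its upper limit of 1 can hardly vary, and boundary reads per 100 spliced reads ran from 3496 (Ly6Clo) to 6915 (cMoP replicate 1) for Mtch1 and from 1486 (knockout replicate 2) to 2744 (cMoP replicate 2) for Uqcrq. Pi16 was at 119 and 116 TPM in the knockout, 4.23 TPM in the MDP library, 11.3 and 6.26 TPM in cMoP, 123 and 125 TPM in Ly6Chi and 74.5 TPM in Ly6Clo.

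The others were the last intron of Fam134a, an autophagy receptor of the endoplasmic reticulum, the first intron of the ribosomal protein gene Rpl10, and introns of Son, Atxn2l, Leng8 and Llgl1. Son, a nuclear speckle protein that aids splicing, had ratios of 0.837 and 0.795 in the knockout, 0.812 in the MDP library, 0.737 and 0.68 in cMoP, 0.79 and 0.832 in Ly6Chi and 0.826 in Ly6Clo. The Leng8 intron had 0.733 and 0.777 in the knockout, 0.78 in the MDP library, 0.751 and 0.54 in cMoP, 0.823 and 0.831 in Ly6Chi and 0.877 in Ly6Clo. In both genes cMoP replicate 2 was lowest. Among these 8 introns none was called in any comparison.

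The most boundary reads came from highly expressed genes whose intron has 1 boundary with many reads and another with few. The ribosomal protein genes Rps18 and Rps27 and the histone variant genes H2afz and H3f3a showed this. Rps18 intron 3 had 17878 and 12820 reads on the left and 43 and 37 on the right in the knockout, and 9543 and 11560 on the left and 36 and 37 on the right in Ly6Chi controls. Its retention ratio was 0.00224 and 0.00203 in the knockout and 0.00287 and 0.00273 in Ly6Chi controls, so the body of the intron had little coverage. Srsf2, a splicing factor known to control its own RNA through alternative splicing in its 3′ untranslated region, differed from these. That intron (chr11:116850354-116850855, 502 bp), 1 boundary of which lies under Mettl23 exon sequence, had a ratio of 0.545 and 0.643 in the knockout, 0.858 in the MDP library, 0.789 and 0.8 in cMoP, 0.646 and 0.643 in Ly6Chi and 0.542 in Ly6Clo. Progenitors were above monocytes, yet Ly6Chi against cMoP did not pass the test (change -1.46 ± 0.27, edgeR adjusted p = 0.366). With U and S scaled apart by TMM, a scaling that removes the overall shift between groups, it passed (-1.53 ± 0.29, adjusted p = 0.00437).

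From cMoP to Ly6Chi monocytes, 3 introns of 14154 were called higher and 0 lower, in Nkiras2 and Cndp2 (0.0212%, against 0.0162% of all introns fitted, 0.00812% in each direction). The count was 0 without either Ly6Chi or either knockout library. Without cMoP replicate 1 it was 2997 higher and 58 lower, against 10282 higher and 244 lower over all introns, and without cMoP replicate 2 it was 10 higher and 13 lower, against 23 higher and 37 lower over all. Intron 1 of Nkiras2, a Ras-like inhibitor of NF-kB signalling (chr11:100623009-100624191), lies in the 5′ untranslated region, 2841 bp from Dnajc7. It had 268 and 198 boundary reads in Ly6Chi and 9 and 4 in cMoP, with 4 in the MDP library, 394 in Ly6Clo and 128 and 164 in the knockout. All but 1 and 2 of the Ly6Chi reads crossed the right boundary, and the retention ratio was 0.0339 and 0.0352 in Ly6Chi and 0.019 and 0.00425 in cMoP (change 4.17 ± 0.52, edgeR adjusted p = 0.0324). Intron 1 of Cndp2, a cytosolic dipeptidase gene, had 278 and 352 boundary reads in Ly6Chi and 32 and 18 in cMoP, all at the left boundary (change 3.06 ± 0.40, adjusted p = 0.0327). In both introns the Ly6Chi libraries lay above the cMoP libraries, and nearly all reads stood at a single boundary with little coverage of the intron body. With U and S scaled apart, 31 introns were called higher and 46 lower (over all introns 0.478%, with 0.205% higher and 0.273% lower), so the split between directions rests on the scaling.

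The following introns were called with that scaling and were named after the counts were seen. Daxx, a regulator of transcription and cell death, had 66 and 96 boundary reads in Ly6Chi and 5 and 5 in cMoP at its first intron (change 2.88 ± 0.49, edgeR with TMM scaling, adjusted p = 0.00124). Chd1, a chromatin remodeller, had 15 and 11 in Ly6Chi and 3 and 0 in cMoP (3.38 ± 0.79, adjusted p = 0.0359). Intron 6 of Txnip, a regulator of glucose uptake, had 46 and 68 boundary reads over 2368 and 1808 spliced reads in Ly6Chi, and 87 and 34 over 374 and 203 in cMoP (-3.30 ± 0.34, adjusted p = 1.32e-07). Its boundary reads overlap between the groups while its spliced reads do not. The retention ratio of this intron was 0.0097 and 0.0178 in Ly6Chi and 0.102 and 0.0692 in cMoP. Anks1 had 9 and 10 boundary reads in Ly6Chi and 77 and 20 in cMoP (-3.76 ± 0.48), and introns of Gpr107 and of the haem oxygenase gene Hmox2 were called lower too.

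From MDP to cMoP and from Ly6Chi to Ly6Clo, 0 introns were called (background 0% in each), with 1108 and 787 at an unadjusted p under 0.05. With 1 library each, MDP and Ly6Clo were taken to have the spread of the replicated groups. Without cMoP replicate 1, 15 introns were called higher and 1690 lower in cMoP against MDP, against 143 higher and 6648 lower over all introns. In Ly6Clo against Ly6Chi it was 88 higher and 8 lower, against 304 higher and 53 lower over all. Without cMoP replicate 2, 2 were called lower in cMoP against MDP (6 higher and 3 lower over all), and 85 higher and 8 lower in Ly6Clo against Ly6Chi (296 higher and 54 lower over all). DESeq2 and limma called 0 in both comparisons. With U and S scaled apart, 0 were called in cMoP against MDP (over all introns 0.00975%, with 0.00650% higher and 0.00325% lower), and 4 were called higher and 2 lower in Ly6Clo (over all introns 0.0585%, with 0.0244% higher and 0.0341% lower). Intron 10 of Hnrnpa1, which encodes an RNA-binding repressor of splicing, had 652 boundary and 995 spliced reads in Ly6Clo, and 542 and 572 boundary and 2691 and 2967 spliced reads in Ly6Chi (1.55 ± 0.32, edgeR with TMM scaling, adjusted p = 0.0441). Its retention ratio was 0.218 in Ly6Clo and 0.0604 and 0.0633 in Ly6Chi. An intron of Gmfg, an actin regulator of leukocytes, had 335 boundary reads in Ly6Clo and 115 and 157 in Ly6Chi (2.04 ± 0.33, adjusted p = 0.00337). Intron 1 of the GTPase gene Rhoa had 307 in Ly6Clo and 54 and 75 in Ly6Chi (1.70 ± 0.34, adjusted p = 0.035), all at the left boundary, and intron 1 of Znhit1 had 64 in Ly6Clo and 19 and 21 in Ly6Chi (2.48 ± 0.51, adjusted p = 0.0434). Introns of the lysosomal membrane gene Lamp1 and the RNA helicase gene Ddx5 were called lower, with 2 boundary reads in Ly6Clo against 36 and 41 in Ly6Chi for Lamp1, and 135 in Ly6Clo against 286 and 285 in Ly6Chi for Ddx5.

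Summed markers of other cells were higher in the Ly6Clo library than in Ly6Chi. The summed level of 5 neutrophil markers was 2635 TPM in Ly6Clo, against 750 and 932 TPM in Ly6Chi, that of 5 B cell markers 48.7 TPM in Ly6Clo and 17.7 and 17.5 TPM in Ly6Chi, and that of 5 erythroid markers 189 TPM in Ly6Clo and 21.2 and 113 TPM in Ly6Chi. The 5 markers of T and NK cells summed to 1.89 TPM in Ly6Clo and 0.970 and 0.730 TPM in Ly6Chi. S100a8 gave 1544 TPM of the neutrophil sum in Ly6Clo, and Ngp, Ltf, Camp and Mmp9 were higher there too. Cd79b gave 35.4 TPM of the B cell sum in Ly6Clo, and was at 39.0 TPM in MDP and 43.6 and 35.5 TPM in cMoP. Whether this RNA came from other cells was not tested. The part of these cells in the Ly6Clo values was not tested, and in bulk RNA fewer cells of a type and less RNA per cell cannot be told apart. Knockout libraries summed to 1250 and 925 TPM for neutrophil markers, so replicate 1 lay above both Ly6Chi controls, and to 13.8 and 12.8 TPM for B cell markers, below both. Most of the neutrophil sum was S100a8, at 998 and 774 TPM in the knockout and 579 and 653 TPM in Ly6Chi controls. Ngp, Ltf, Camp and Mmp9 of knockout replicate 1 lay between the values of the controls, and those of knockout replicate 2 lay below both controls. The part of such cells in the knockout values was not tested.

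With the same scaling, 254 introns were called higher and 5 lower in the knockout against Ly6Chi controls (over all introns 0.642%, with 0.546% higher and 0.0959% lower). Of the 5 called lower, those named after the counts were seen lay in Atp6v1b2, Coro7, Phka2 and Cux1, and these 4 had no covered boundary. Coro7, a coronin of the actin and Golgi systems, had 7 and 8 boundary reads in the knockout and 74 and 48 in Ly6Chi controls (-2.43 ± 0.44, edgeR with TMM scaling, adjusted p = 0.00117), with retention ratios of 0.0107 and 0.0194 in the knockout and 0.0992 and 0.0664 in Ly6Chi controls. Phka2, a phosphorylase kinase subunit, had 17 and 9 in the knockout and 103 and 102 in Ly6Chi controls, and Cux1, a transcription factor, 1 and 14 in the knockout and 44 and 36 in Ly6Chi controls. The wild-type library cMoP replicate 2 was low as well, with 0 boundary reads in Atp6v1b2, 10 in Coro7, 9 in Phka2 and 5 in Cux1.

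The hosts also belong to pathways in which retention or decay has been described. With 0.146% of all introns called in the knockout, a count of 0 in lists of this size says little about them. Of 19 nonsense-mediated decay and exon junction genes, 9 held 35 marked introns, and 0 were called in any of the 4 comparisons. Of 46 splicing regulators, 30 held 103, with 0 called and 5 retained in all 8 libraries. Lysosome genes held 79 in 13 of 23 genes, interferon response genes 21 in 7 of 28, and cell cycle genes 37 in 9 of 24, again with 0 called. The median log2 change in the knockout, before the median of all introns is subtracted, was -0.27, -0.24, -0.25, -0.28 and -0.16 in these lists in the order given, against -0.29 over all introns fitted.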

How the data were processed

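Per the submitters' processing notes, FastQC, Trimmomatic, STAR 2.5.2a and RSEM were used with the builds mm10 and hg38. Strand settings, and the program behind the intron tables, are not given in the sources used here. Read pairs of 100 bp came from RNA of an integrity number over 7, per the labels. The authors deposited, for each library and intron, whole-number counts of boundary and spliced reads, a coverage signal over the intron and a fraction, the retention ratio. The authors' expression table is named for FPKM, but its columns share the same total but for rounding, as TPM does, so its deposited values were treated as TPM.

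The introns, places and gene lists were chosen with earlier results of these data known. Boundary reads U (left plus right) were tested relative to S (the larger spliced count) with edgeR 4.0.16 in R 4.3.3 (quasi-likelihood, all 8 libraries, 3 residual degrees of freedom) over introns whose S reached 20 in each library and whose U, summed over the 8, reached 20. Adjusted p-values under 0.05 passed. SE is the log2 change divided by the square root of its F value. Changes are given minus the median of all introns fitted, but as fitted where U and S were scaled apart by TMM. For named introns the p-value belongs to the change before that shift. DESeq2 1.42.0 and limma 3.58.1 served as alternatives. The fit was also run on simulated data, with results not reported here. Opposite-strand exons came from GENCODE mouse release 21 (mm10). Introns named were, at most 1 per gene, the 8 largest rises in the knockout with groups that do not overlap, up to 4 in each direction in the other comparisons, the 8 highest mean retention ratios and the 6 with most U, of which 1 is not reported here. Spliced reads over these introns totalled 7502260 (Ly6Clo) to 12384700 (cMoP replicate 2) a library, and boundary reads 594647 to 751960. Intervals cover counting error only.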

Additional observations from a re-analysis of the deposited data

How the results depend on the processing

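The count of 79 antisense-marked introns called in the knockout became 259 with U and S scaled apart by TMM, 16 with limma on the log2 ratio, 315 with only the 2 groups compared (225 higher and 90 lower), 44 without introns that carry the known-exon mark and 18 without introns with a covered boundary, the last being added after seeing the data. DESeq2 gave 90, and filters of S of at least 50 or no minimum on U gave 60 and 100. The count rested on single libraries. Leaving out 1 library at a time gave 2 to 371, with 9 and 10 without knockout replicates 1 and 2, 371 and 367 without cMoP replicates 1 and 2, and 3 and 2 without Ly6Chi replicates 1 and 2. For Ly6Chi against cMoP the count of 3 became 77 with TMM scaling, 0 with limma, 12 with no minimum on U, 0 with only the 2 groups and 8 with DESeq2, and 0 to 3055 with 1 library left out (3055 without cMoP replicate 1, 23 without cMoP replicate 2). For cMoP against MDP the count of 0 became 1 with only the 2 groups and 0 to 1705 with 1 library left out (1705 without cMoP replicate 1). For Ly6Clo against Ly6Chi it became 6 with TMM scaling, 265 with only the 2 groups and 0 to 96 with 1 library left out. The cause of these changes was not tested.

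With a replicate block, the knockout count was 50 and the count for Ly6Chi against cMoP 0. Replicate numbers did not pair the libraries, as deviations of same-numbered libraries correlated at -0.0208, -0.0558 and -0.0382. The difference of medians between marked and clean introns, 0.11, ran from 0.09 to 0.13 with 1 library left out and was -0.01 with intron coverage in place of U. At a retention ratio of at least 0.05 the shares were 18.3% and 20.4% in the knockout, 23.1% in the MDP library, 20.2% and 8.14% in cMoP, 24.5% and 24.2% in Ly6Chi and 29.3% in Ly6Clo. With only the 1431 introns free of warnings they were 15.1% and 15.9% in the knockout, 14.5% in the MDP library, 14.4% and 7.48% in cMoP, 17.4% and 17.5% in Ly6Chi and 19.1% in Ly6Clo. Without known-exon introns the log2 excess over clean introns was 0.64 and 0.66 in the knockout, 0.56 in the MDP library, 0.63 and 0.58 in Ly6Chi and 0.75 in Ly6Clo. Introns with few boundary reads cannot show small changes at this depth.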
